A study of Caenorhabditis elegans with 2 samples.

Results

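Peaks of the tagged zinc finger protein F37B4.10 inside coding sequence and untranslated regions (UTRs), away from annotated gene starts, are described here. They come from chromatin immunoprecipitation followed by sequencing (ChIP-seq) in whole young adults of Caenorhabditis elegans. The peaks were chosen by their signal, the authors' own value per peak, and by position. From the 115634 candidate peaks ranked over both replicates, the 5000 of highest signal were taken. A peak was kept when its summit lay in the coding sequence (CDS), the 5′ UTR or the 3′ UTR of a protein-coding gene. Summits in the promoter windows of these genes, which reach 1000 bp before and 200 bp past each start, were left out, as were those closer than 200 bp to genes of small RNAs (tRNA, snRNA and snoRNA). This rule kept 1398 of the 5000 peaks, of which 1318 had their summit in CDS, 65 in a 3′ UTR and 15 in a 5′ UTR. Promoter windows held 1302 of the 5000 peaks, introns 925 and intergenic sequence 918, each counted with no small RNA gene within 200 bp.

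The worms were of strain OP374, in a single group of 2 biological replicates, both harvested as young adults aged 61 h after synchronisation by starvation of bleached L1 larvae. All of them carried the integrated transgene wgIs374, in which F37B4.10 bears a TY1, EGFP and 3xFLAG tag. The transgene also holds unc-119(+), and the strain has the unc-119(tm4063) allele. Chromatin was precipitated with anti-GFP antibody. There was no second strain, age or treatment, so nothing here compares conditions, and the values below are descriptions with no test. In whole worms, binding in fewer cells and weaker binding in each cell cannot be told apart, nor can a peak be given to a tissue.

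RefSeq describes the product of F37B4.10 as a protein with a C2H2-type domain, the class of zinc finger found in many sequence-specific DNA-binding proteins. Binding maps of such factors usually centre on promoters and enhancers, the elements that set where and when a gene is transcribed. In the compact genome of C. elegans, coding exons lie close to these elements and are richer in G and C than introns and intergenic sequence. A summit in a coding exon gives the place of the highest signal and says nothing of whether the gene is regulated.

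The summit letters of the leading CDS peaks show what kind of sequence the summits fell on. Each line gives the 30 bases round the summit on the coding strand of the gene, 5′ to 3′, from the RefSeq genome of assembly WBcel235 (the same sequence as ce11). The codon that holds the summit base is in capitals. The total after each codon number leaves out the last codon of the annotated CDS, so it is not the number of codons in that CDS. For folt-2 the annotated CDS has 1272 bases and the total printed is 423. These totals are not protein lengths. The 8 lines are the CDS peaks of highest signal.
folt-2 (V:2873133-2873162, minus strand, codon 296 of 423, exon 4 of 5): gctcaacgtgaatTGGaaccgatggggaga
ifc-1 (V:2883282-2883311, plus strand, codon 408 of 499, exon 5 of 5): actacaaccacaacgACCaatgggtattct
F37B4.10 (V:2876618-2876647, minus strand, codon 138 of 285, exon 3 of 5): aatcaaagcaaatATTatgccggtgagcat
ZC178.2 (V:8699891-8699920, minus strand, codon 2582 of 2636, exon 5 of 5): gctcaactgaatccAGCtcctcaagcacca
stdh-1 (V:13907849-13907878, plus strand, codon 278 of 313, exon 4 of 4): ttactcatcaaattGAAtgcgaaatgctga
adh-5 (V:915911-915940, plus strand, codon 314 of 385, exon 5 of 5): gagatcgccacccgtCCAttccaacttgtc
best-18 (III:10214630-10214659, plus strand, codon 424 of 455, exon 7 of 7): tcacgcagtttggagCGGcagagaagtccc
ifc-1, second peak (V:2881871-2881900, plus strand, codon 70 of 499, exon 2 of 5): tgagattcttcgcAGAggattctcgggcgg
The GC content of these 8 stretches ran from 33.3% at stdh-1 to 60% at best-18, so they were not of one composition.

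The signal of the coding and UTR peaks was narrow in range, and fewer of them than of promoter or intergenic peaks were among the strongest. Their joint signal ran from 52.15 to 163 with a median of 57.8, and the middle of the distribution lay between 54.7 and 63.3. Over all 5000 peaks the median was 58.6 and the maximum 1494. The coding and UTR peaks made up 28.0% of the 5000, yet 4 of the first 100 (4%) and 66 of those ranked 101 to 500 (16.5%). Their share was 27.2% at ranks 501 to 1000 and 32.6% at ranks 3001 to 4000. In all, 70 of the 1398 (5.01%) ranked in the first 500, against 11.4% of promoter peaks, 15.3% of intergenic peaks and 5.73% of intron peaks, whose median signal of 58.3 was also near theirs. At the limit of the rule, the last 5 peaks inside had signals of 52.20, 52.19, 52.19, 52.17 and 52.15, in set-12, xrn-2, efk-1, F36H9.10 and par-2. The next 5 coding or UTR peaks outside had 52.15, 52.14, 52.13, 52.11 and 52.11, so the limit cuts through a continuous run of values.

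Per base, coding sequence held more of the 5000 summits than the other classes of position. The density was 70.1 summits per Mb in CDS, 68.6 in other exons, 49.7 in promoter windows, 40.4 in intergenic sequence and 34.9 in introns, and 49.9 over the whole genome. The 5′ UTRs held 36.3 per Mb and the 3′ UTRs 27.9, so the excess over the genome was seen in CDS and not in the UTRs. Apart from the promoter and whole-genome values, these densities count sequence left after promoter windows and the surroundings of small RNA genes were removed. This left 18.8 Mb of CDS, 0.413 Mb of 5′ UTR and 2.33 Mb of 3′ UTR. From promoter windows only the surroundings of small RNA genes were removed. The whole-genome value counts all 5000 summits over 100.3 Mb with nothing removed. Among chromosomes, the density of coding and UTR peaks ran from 56.8 per Mb on chromosome V to 73.9 on chromosome III.

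The leading peak lay in folt-2, which encodes a folate-like transporter, with a joint signal of 163 (rank 43, V:2873009-2873284). Its signal was 76.4 in replicate 1 and 106 in replicate 2, the highest of the set in both. The next, in the last exon of the intermediate filament gene ifc-1, had a joint signal of 140, with 45.9 in replicate 1 and 81.1 in replicate 2. The third lay in F37B4.10 itself, the gene of the tagged protein (V:2875734-2877609, minus strand), with 135 jointly, 71.9 in replicate 1 and 53.0 in replicate 2. All these genes are neighbours on chromosome V.

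The surroundings of F37B4.10 stood apart from the rest. Within 25 kb of that gene lay 23 of the 5000 peaks, and 9 of them were in coding sequence, a density of 621 per Mb of eligible coding and UTR sequence against 64.9 over the genome. The 9 peaks were in folt-2 (2 peaks), ifc-1 (2 peaks), F37B4.10 and the chemoreceptor genes sre-24, srh-243, srh-241 and srj-57. Their median signal was 87.5, against 57.7 for the other coding and UTR peaks, and 3 of the 4 coding peaks in the first 100 were among them. The sre-24 peak had 87.5 jointly, 55.1 in replicate 1 and 36.7 in replicate 2. The srj-57 peak had 86.9 jointly, 45.1 in replicate 1 and 45.7 in replicate 2, nearly the same in both. In the lowest of the 9, srh-241 at 53.8, replicate 1 had no overlapping peak and replicate 2 had 35.1. The strain carries F37B4.10 again on the transgene, with flanking DNA whose extent the labels do not give, and the part of the added copies in these signals was not tested. No coding or UTR peak lay within 25 kb of unc-119, the other gene on the transgene.

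**Figure D1:**
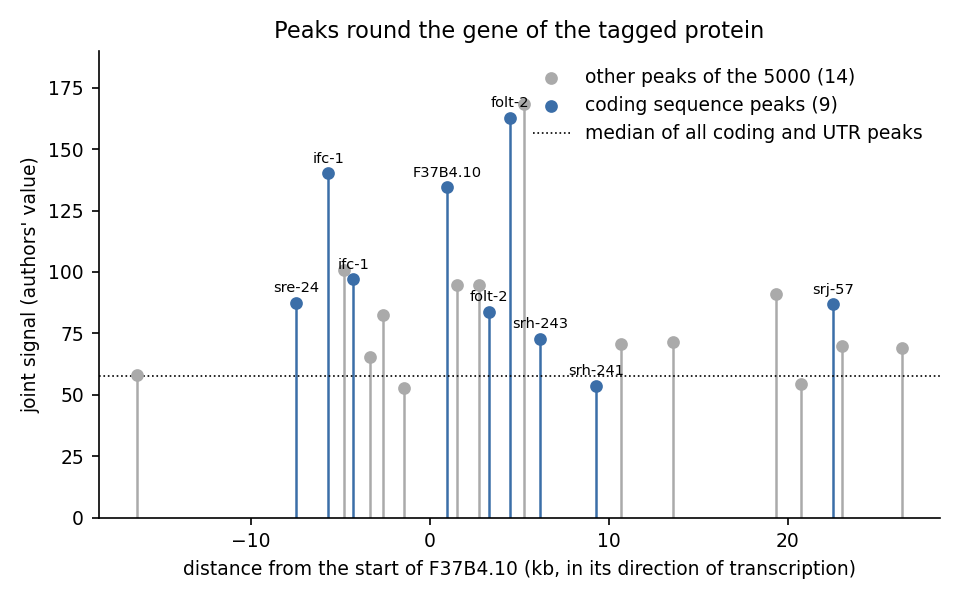
Joint signal (y axis, the authors' value) of each of the 5000 peaks near F37B4.10 against its distance from the start of that gene in kb (x axis), with coding sequence peaks in blue and labelled, other peaks in grey, and a dotted line at the median of all 1398 coding and UTR peaks, 57.8. Of the 9 coding sequence peaks, only srh-241 at 53.8 lies below the line, and folt-2 is the highest of them at 163.

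Outside this locus, the leading CDS peaks were in genes of unlike function. The peak in stdh-1, a putative steroid dehydrogenase, had a joint signal of 114, with 51.6 in replicate 1 and 66.9 in replicate 2. The peak in adh-5, an alcohol dehydrogenase of class 3, had 111, with 61.6 and 49.5. The peak in best-18, a homolog of bestrophin chloride channels, had 109, with 43.4 and 60.8. Both replicates thus placed these peaks far above their medians of 27.1 and 32.5, though not in the same order.

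Next came genes of metabolism, yolk and transcription. The peak in vit-2, which encodes a vitellogenin, the yolk protein made by the adult intestine, had 94.2 jointly, 64.9 in replicate 1 and 33.2 in replicate 2. The peak in pks-1, a polyketide synthase annotated by RefSeq as a fatty acid synthase, had 96.1, with 23.2 in replicate 1 and 66.6 in replicate 2. These were mirror cases, with replicate 1 well above replicate 2 at vit-2 and well below it at pks-1. In mef-2, a MEF2 transcription factor, the peak had 95.1, with 38.4 and 59.5. The others among the 20 highest CDS peaks were in Y39G8B.1 (93.9), ego-2 (91.7), col-161 (91.6), Y48G1BM.10 (91.5), col-147 (89.9), glb-34 (89.2), coq-6 (88.2) and dos-3 (88.2). Of these, coq-6 acts in ubiquinone synthesis and glb-34 encodes a globin.

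The peak in ZC178.2, a gene of a repetitive mucin-like protein, was unusual in that its sequence occurs elsewhere. Its joint signal was 117, with 50.8 in replicate 1 and 67.7 in replicate 2, and the 51 bases round its summit have 17 copies in the genome. Reads from such a place can belong to any of the copies, so the position of this peak is uncertain. Repeats of that kind were rare in the set. The 51 bases round the summit occurred more than once for 20 of the 1398 peaks (1.43%), against 5.52% of all 5000 and 13.2% of intergenic peaks. A soft-masked (repeat-annotated) base lay at the summit of 75 peaks (5.36%), where 11.8% of the eligible coding and UTR bases are soft-masked.

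The 15 peaks in 5′ UTRs lay in UTR exons that reach past the promoter window of every annotated start. The highest was in C34C12.2, a protein with a fibronectin type-III domain (III:3456271-3456546), with 88.0 jointly, 24.3 in replicate 1 and 60.4 in replicate 2. The second was in cnd-1, the worm NeuroD-like transcription factor of the nervous system, with 74.98 jointly, 31.4 in replicate 1 and 47.1 in replicate 2. Others were in the zinc metalloproteinase gene nas-39 (65.2) and the PUM-HD gene T28F4.4 (63.5). In replicate 1, nas-39 was the highest of these 4 at 41.1, and in replicate 2 it was the lowest at 25.1.

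Of the 65 peaks in 3′ UTRs, the highest was in nhr-88, a nuclear hormone receptor gene (II:2986180-2986455). It had 85 jointly, 40.0 in replicate 1 and 49.1 in replicate 2. The peak in R03D7.2, a helicase-like gene, had 81.8, with 36.6 and 43.6, in a stretch of 65.3% GC, far above the 30.7% median of 3′ UTR bases. The gene mnk-1, a kinase that acts downstream of MAP kinases, held 2 of the 10 highest, at 77.2 and 69.3, and both summits also lay in an annotated noncoding RNA gene, WBGene00014492. Others were F57G12.1 (75.3), ZK470.2 (74.8), clec-87 (73.7), dnj-20 (71.8) and atln-1 (66.9). In none of the 65 was the surrounding 51-base sequence found more than once.

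Most of the coding and UTR peaks were also listed when each replicate was ranked alone. A peak of the replicate 1 list overlapped 1318 of the 1398 by at least 1 base, one of the replicate 2 list overlapped 1327, and 1251 (89.5%, 95% exact interval 87.8 to 91.0) were overlapped in both. The share over all 5000 peaks was 89.1%, so coding and UTR peaks were listed about as often as the rest. Only 4 were in neither list. Since the joint ranking draws on both replicates, this overlap describes the choice of peaks and is no separate evidence of binding.

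The sizes of the signals in the replicates were less alike than their presence. Among the 1251 peaks in both lists, signal ran from 8.28 to 76.4 in replicate 1, with a median of 27.1 over the peaks it listed, and from 11.9 to 106 in replicate 2, with a median of 32.5. The ratio of replicate 1 to replicate 2 had a median of 0.821, and 1099 of the 1251 (87.8%) were within 2-fold of each other. Replicate 1 was the higher in 377 (30.1%). Among the 4457 of all 5000 peaks that were in both lists, these shares were nearly the same, 87.4% and 31.0%. Across the 1251 coding and UTR peaks the signals of the replicates were not positively related (Spearman −0.34, Pearson −0.17, n = 1251 peaks of the same 2 samples). Over the 4457 peaks, which include the far higher signals outside coding sequence, Spearman was −0.17 and Pearson 0.70. Peaks were chosen on the joint signal, to which both replicates contribute, so this correlation describes the choice as well as the replicates. Of the 1398, 247 (17.7%) were in the first 5000 of both replicates' own rankings, against 22.4% of all 5000.

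**Figure D2:**
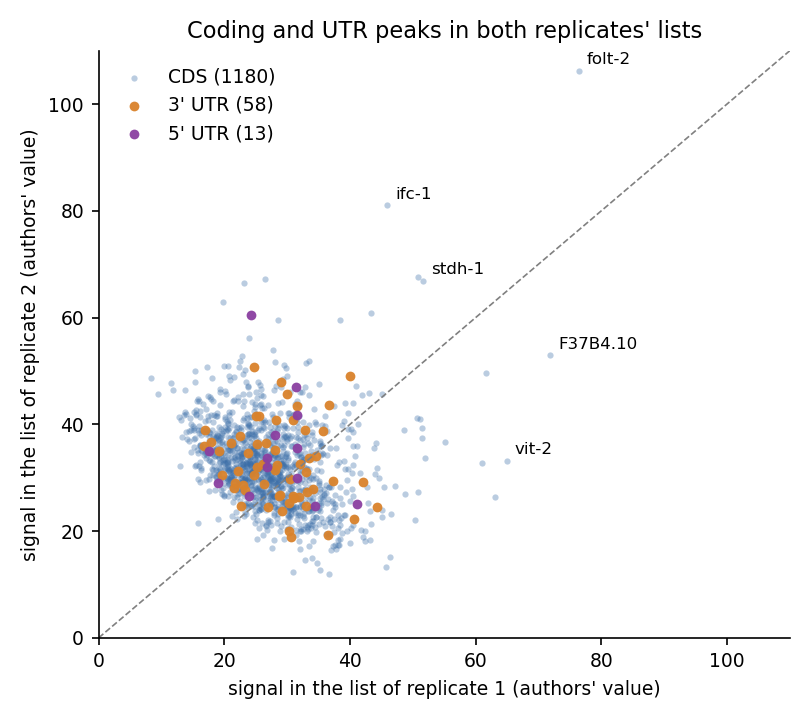
Signal of each of the 1251 coding and UTR peaks found in both replicates' own ranked lists, replicate 1 on the x axis and replicate 2 on the y axis (the authors' values), with CDS peaks in blue, 3′ UTR peaks in orange, 5′ UTR peaks in purple and a dashed line where both are equal. Most points form a cloud round 27.1 and 32.5, and folt-2 at 76.4 and 106 lies beyond it.

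The authors' thresholded lists keep peaks that rank alike between inputs, measured as an irreproducible discovery rate (IDR) of at most 1%. The conservative list overlapped 168 of the 1398 peaks (12.02%, 95% exact interval 10.4 to 13.8). It overlapped 16.3% of all 5000 peaks, 19.1% of promoter peaks, 13.6% of intron peaks and 15.03% of intergenic peaks. By position, it overlapped 154 of 1318 CDS peaks (11.7%), 10 of 65 in 3′ UTRs (15.4%) and 4 of 15 in 5′ UTRs (26.7%). The other joint thresholded list overlapped 178 (12.7%), with 18% for all 5000. The list of replicate 1 alone overlapped 10 (0.715%), with 1.58% for all 5000, and that of replicate 2 alone 8 (0.572%), with 1.9% for all 5000. All these lists derive from the same alignments that ranked the peaks.

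Within bands of rank these shares lay closer together. At ranks 101 to 500, 84.8% of coding and UTR peaks and 85% of all peaks were overlapped by the conservative list. At ranks 501 to 1000 the shares were 56.6% and 54%, and at ranks 1001 to 2000 they were 8.80% and 11.1%. Of the 70 coding and UTR peaks in the first 500, 11 were not overlapped, with −log10 IDR values from 1.09 to 3.47. They were in ZC178.2, pks-1, ttn-1, alh-8, folt-2 (the second peak), Y39G10AR.16, phat-1, Y48B6A.1, hmg-12, mag-1 and col-111. In alh-8 the signal was 19.7 in replicate 1 and 63.0 in replicate 2, and in hmg-12, a high mobility group gene, 63.1 and 26.4, so both replicates listed these peaks with unlike signals. In ZC178.2 and ttn-1, with −log10 IDR of 3.47 and 2.91, the summit sequence was repeated in the genome, with 17 and 4 copies.

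The summits differed from eligible coding and UTR sequence as a whole in base composition, which the rule did not use. Within 50 bp of the summit, a window of 101 bp, the median GC content was 47.5% for the 1398 peaks and 39.6% for all eligible coding and UTR bases. The summits of all 5000 peaks had the same median, 47.5%. In CDS it was 48.5% against 40.6%, and in 3′ UTRs 41.6% against 30.7%. GC content was over 60% at 7.44% of the peaks and at 0.673% of the bases. It was under 35% at 2.72% of the peaks and at 24.6% of the bases. Higher ranks were richer, with a median of 51.98% at ranks 101 to 500 and 46.5% at ranks 4001 to 5000.

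Introns and intergenic sequence showed the same relation. Summits per Mb of coding and UTR sequence rose from 9.45 where GC content was 30 to 35%, through 57.0 at 40 to 45% and 218 at 50 to 55%, to 660 at 60 to 65%. In introns the same bins held 9.77, 73.7, 229 and 842 per Mb, and between genes 11.4, 67.9, 296 and 786. In each bin from 30 to 65% GC, coding and UTR sequence held fewer summits per Mb than introns or intergenic sequence. Outside that range the order varied, with 947 per Mb at 65 to 70% against 899 in introns and 1083 between genes, and 3.68 at 25 to 30% against 5.62 and 2.76. Over all bins coding and UTR sequence held more (64.9 per Mb against 34.9 and 40.4). A base of coding or UTR sequence had a median GC content of 39.6%, and one of intron or intergenic sequence 32.7%. At 45 to 50% GC the 3 values were 104, 153 and 153. The part of base composition in which peaks were found was not tested.

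**Figure D3:**
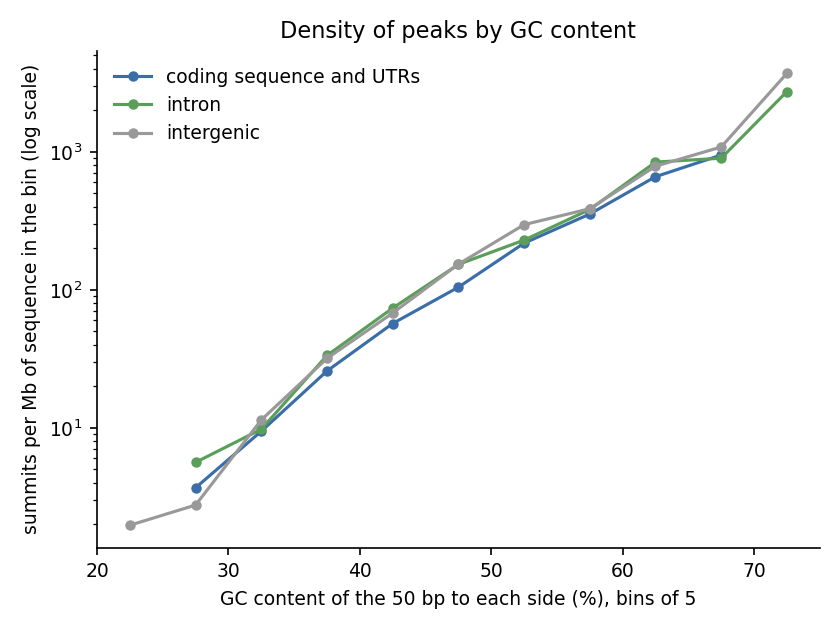
Summits per Mb of sequence (y axis, log scale) in bins of 5% GC content measured in 101 bp (x axis), for coding sequence and UTRs (blue), introns (green) and intergenic sequence (grey), showing bins with at least 5 summits. All 3 lines climb together, and at 45 to 50% the blue line (104) lies below the other two (153 each).

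Within genes, summits lay in somewhat longer exons, and less often near exon edges, than eligible coding bases did. Of the 1318 CDS peaks, 1306 had their summit in the coding sequence of the gene's longest transcript. The exon holding it had a median coding length of 389 bp, against 276 bp for the exons of all eligible coding bases, and exceeded 1000 bp for 12.2% of summits and 8.50% of bases. A summit lay within 25 bp of an exon edge in 10.5% of cases, against 22.3% of the bases. Longer exons have a smaller share of their bases near an edge, and exon length was not held fixed in this comparison. Last exons held 19.8% of summits and 14.4% of bases, and first exons 3.98% and 3.02%. Along the coding sequence, the stretch from 80 to 90% of its length held the most summits, 13.4% of them against 10.6% of the bases. The stretch from 20 to 30% held 9.19% against 10.7%.

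**Figure D4:**
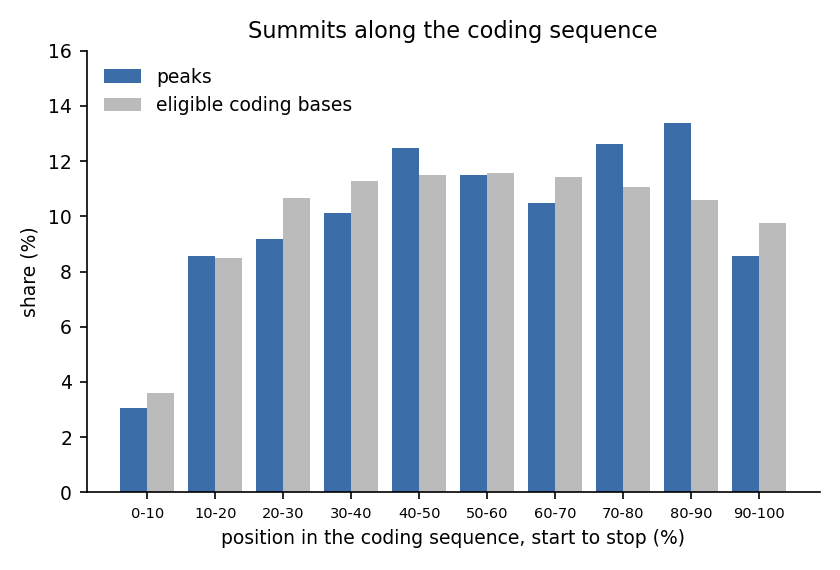
Share of the 1306 CDS summits (blue) and of all eligible coding bases (grey) in bins of 10% of the coding sequence of the longest transcript (x axis, start to stop in percent; y axis, share in percent). The blue bar rises furthest above the grey one at 80 to 90%, with 13.4% against 10.6%.

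From summit to nearest protein-coding start, the distance had a median of 1442 bp and reached 21385 bp. The rule sets its lower limit. Of the 1398 summits, 441 were within 1000 bp of a start, downstream of it.

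The peaks were spread over 1254 of 19973 protein-coding genes (6.28%), and most genes held a single one. There were 1139 genes with 1 peak, 96 with 2 and 19 with 3 or more. Long genes held them more often. Among genes with 1 to 499 eligible coding bases 2.37% held a peak, and among those with 5000 or more 43.4%. The median coding length was 1626 bp for genes with a peak and 987 bp for all genes.

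The genes with 3 or more peaks included several of the largest genes of the genome. With 6 peaks, dig-1, which encodes a giant extracellular matrix protein, led the list, followed by vab-10, a spectraplakin that links the cytoskeleton to attachment structures, with 5. Peaks numbered 4 each in ttn-1 (titin), myo-1 (a myosin heavy chain of the pharynx), let-805 (the attachment protein myotactin), dpy-21 (a histone demethylase of dosage compensation), smg-6 (nonsense-mediated decay) and mnk-1. Per kb of eligible coding sequence these numbers ran from 0.0890 in ttn-1 and 0.153 in dig-1 to 1.13 in smg-6 and 2.27 in mnk-1, whose 4 peaks include the 2 in its 3′ UTR. Over all protein-coding genes there were 70.5 CDS peaks per Mb of such sequence, not far below ttn-1. Most signals in these genes were near the median of the whole set, with 53.5 to 64.9 in dig-1 and 53.1 to 59.5 in vab-10. No peak of dig-1 or vab-10 was in the conservative list, where 12.02% of all coding and UTR peaks were. Higher values were reached in ttn-1 (86.8), smg-6 (78.3), F53H2.3 (77.7) and dpy-21 (77.3).

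Gene families differed in how densely they held peaks. Families were matched by gene symbol, and peaks were counted per Mb of eligible coding sequence, where all protein-coding genes held 70.5. Genes named col, which encode cuticle collagens, the proteins of the worm's exoskeleton, held 39 CDS peaks at 360 per Mb, with 1 further peak in a UTR. These lay in 36 of 156 genes (23.1%, against 6.28% of all genes). The wider list of symbols (col, dpy, rol, sqt, bli and ram) held 54 CDS peaks at 291 per Mb in 48 of 196 genes. It takes in genes that encode no collagen, among them dpy-21 with 4 peaks and dpy-22 and dpy-23 with 1 each, so the narrower one is described here, a choice made after the values were seen. Other collagen genes with a peak included sqt-3 (63.1) and rol-8 (62.7), both known from mutants with altered body shape. At lower signals, the wider list also held peaks in dpy-10, sqt-1 and dpy-5, among others.

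The peaks in col genes were also rich in G and C, with a median of 60.4%, against 56.4% for the eligible bases of the same genes and 47.5% for all coding and UTR peaks. The 4 below are the collagen peaks of highest signal and were chosen after their values were seen. They are shown for their composition, again with the summit codon in capitals and the last CDS codon left out of the totals. Those totals are not protein lengths.
col-161 (V:13317418-13317447, minus strand, codon 173 of 290): aggaccagccggaCCAgccggagatgccgg
col-147 (V:9632701-9632730, minus strand, codon 160 of 289): acaagacgctgttGGAggaggaccagggcc
col-85 (II:12494241-12494270, minus strand, codon 162 of 311): caagatgctccatctGCCtcagatttctgc
col-84 (II:11869089-11869118, plus strand, codon 171 of 332): actggactctgctacTATtgcccaggtgga
The stretch in col-161 is 73.3% GC and that in col-147 63.3%, whereas col-85 and col-84 have 50% and 53.3%. Joint signals were 91.6, 89.9, 82.0 and 81.2 in this order. In col-161 replicate 1 had 28.5 and replicate 2 had 59.5, and in col-147 the order turned, with 51.95 and 33.6. In col-85 the replicates had 39.7 and 42.1, and in col-84 36.0 and 41.5, close to each other in both genes.

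Composition moved with the density of peaks in col genes. Where the 101 bp round a base held at least 55% GC, their coding sequence had 32 peaks at 524 per Mb, and all coding sequence had 452. Below 55% GC it had 7 peaks at 148 per Mb, against 58.8. Both classes are broad, and GC content within them was not matched between col genes and all genes. In col genes 56.3% of eligible coding bases were in the richer class, against 2.97% in all genes. Of their 40 peaks, 9 (22.5%) were overlapped by the conservative list, against 12.02% of all coding and UTR peaks, and 2 had a summit sequence found more than once.

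**Figure D5:**
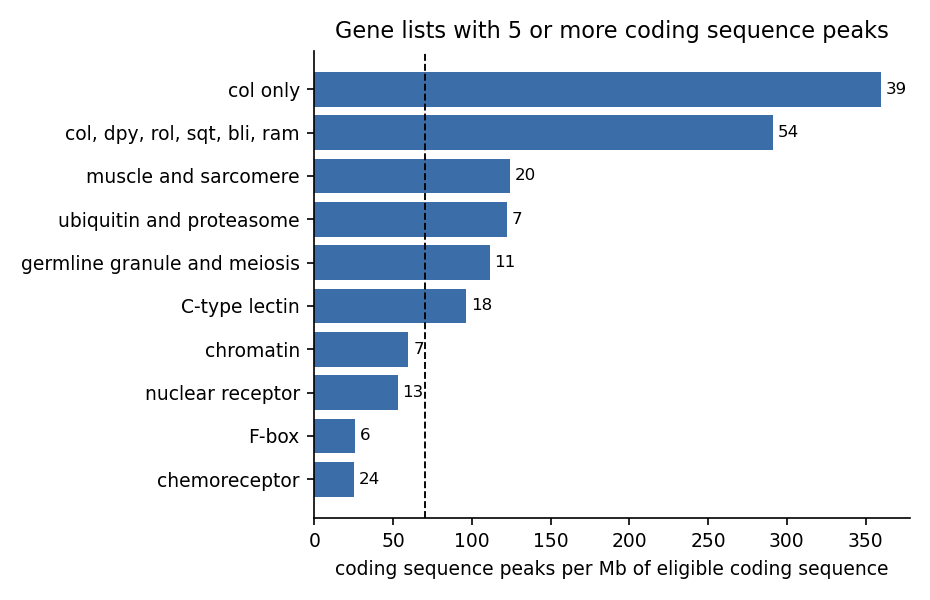
CDS peaks per Mb of eligible coding sequence (x axis) in each gene list with at least 5 CDS peaks, with the number of peaks at the end of each bar and a dashed line at the value for all protein-coding genes, 70.5. Genes named col reach 360 and the wider collagen list that contains them 291, and chemoreceptor and F-box genes stay below the line at 25.1 and 25.96.

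Genes of muscle and the sarcomere held 20 CDS peaks at 124 per Mb. Once UTR peaks are included, a peak lay in 12 of 35 genes (34.3%, against 6.28% of all genes). Long genes, among them ttn-1, are part of this list, and gene length was not held fixed in this share. Besides ttn-1, the list was led by tnt-3, a troponin T gene, with 79.9 jointly, 28.0 in replicate 1 and 51.7 in replicate 2. It also held unc-54, the main myosin heavy chain of the body wall, with 3 peaks, the highest at 73.9 jointly, 31.7 in replicate 1 and 39.6 in replicate 2. In both genes replicate 2 was the higher. Genes of the ubiquitin and proteasome list held 7 at 123 per Mb, led by rpn-1, a subunit of the proteasome's regulatory particle, at 86.2. A peak lay in 6 of the 89 genes of that list (6.74%), near the 6.28% of all genes. Genes of germline granules and meiosis held 11 at 111 per Mb, and 10 of 60 genes (16.7%) held a peak once UTR peaks are included. The list was led by the Vasa-like helicase genes glh-1 (70.1) and glh-4 (69.3) and the Piwi gene prg-1 (62.8). Of the 12 peaks of that list, UTRs included, 0 were in the conservative list, where 12.02% of all coding and UTR peaks were.

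Yolk and ribosomal protein genes were too small as groups for their densities to say much. Vitellogenin genes held 4 peaks in 2 of 6 genes, in vit-2 and in vit-5, whose highest had 77.4 jointly, 33.5 in replicate 1 and 33.6 in replicate 2, nearly the same in both. Ribosomal protein genes with rpl or rps symbols held 4 peaks in 4 of 78 genes (5.13%, against 6.28% of all genes). The highest were in rps-9 (59.2), rpl-13 (58.6) and rps-2 (55.5). Of these 4 peaks, 0 were in the conservative list, where 12.02% of all coding and UTR peaks were, and 4 are too few to compare. The ribosomal P-protein gene rla-1, whose symbol the list does not take in, had a CDS peak at 70.3. The eligible coding sequence of the rpl and rps genes is only 10.3 kb, because these short genes lie mostly inside the promoter windows. C-type lectin genes held 18 CDS peaks at 96.5 per Mb, led by clec-122 (68.3) and clec-187 (68.2). Once UTR peaks are included, a peak lay in 18 of 240 of these genes (7.5%, against 6.28% of all genes).

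Some large families held few peaks for their size. Chemoreceptor genes, the largest family here, held 24 CDS peaks in 955 kb, or 25.1 per Mb, with a peak in 23 of 1371 genes (1.68%). The highest, sre-24 and srj-57, lay near F37B4.10, as did the peaks in srh-243 (72.9) and srh-241 (53.8), and the density counts them all. The third by signal, srap-1 (75.1), matched the symbol pattern but is annotated with an Apple domain and is no chemoreceptor by that description. This gene, srap-1, held 3 of the 24 CDS peaks counted. F-box genes held 6 at 25.96 per Mb, and cytochrome P450 and UGT genes, which act in detoxification, 3 at 17.8 per Mb. Nuclear receptor genes held 13 at 52.8 per Mb, with a peak in 5.20% of genes. Chromatin genes were near the level of all genes, with 7 at 59.8 per Mb and a peak in 8.96% of genes. In the homeobox list 1 of 78 genes held a peak (ceh-1, 58.1), and in the histone list 1 of 80 (his-24, 54.95). In the major sperm protein list it was 1 of 43 (msp-81, 52.3), and in the actin and tubulin list 1 of 17 (act-5, 52.6). These shares were 1.28%, 1.25%, 2.33% and 5.88% in this order, against 6.28% of all genes, so actin and tubulin genes were near that level. The histone and major sperm protein genes have little eligible coding sequence, 4.06 and 4.42 kb, so a single peak already gives them 246 and 226 per Mb. The bases of the chemoreceptor and F-box genes were also poor in G and C, with medians of 36.6% and 37.6% against 40.6% for all coding sequence.

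The remaining lists held 2 to 4 peaks, with a peak in 4.84% to 9.38% of their genes, against 6.28% of all genes. Transcription factor genes with hlh, zip or ztf symbols held 4 in 3 of 62 genes, led by 2 in hlh-11 (67.7 and 63.4). These symbols do not take in F37B4.10 or cnd-1, described above. Chaperone genes held 4 in 3 of 59, led by 2 in the 3′ UTR of dnj-20 (71.8 and 63.4). Both dnj-20 peaks, which belong to a single gene, were in the conservative list, where 15.4% of all 3′ UTR peaks were. Translation factor genes held 2 in 2 of 39, in eef-2 (55.7) and eif-2gamma (55.2), and tRNA synthetase genes 3 in 3 of 32, led by nars-1 (57.3).

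Short sequences known from other factors were counted within 50 bp of the summits, on both strands, as a description. The E-box CACGTG was present at 4.86% of the 1398 coding and UTR peaks, 3.05% of the other 3602 peaks and 2.55% of eligible coding and UTR windows of the same length. The nuclear receptor hexamer AGGTCA was present at 2.93%, 3.36% and 2.01%. The GATA site TGATAA, which is poor in G and C, was present at 5.36%, 4.47% and 9.46%. GAGAGA was present at 5.44%, 9.22% and 5.96%, and GAAGAA at 15.02%, 10.05% and 18.5%. None of these was present at more than 15.02% of the coding and UTR peaks. Since GC content differs between the summits and the windows, these shares do not separate a sequence from its composition.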

How the data were processed

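The data are peak lists in narrowPeak form from ChIP-seq against GFP in 2 biological replicates of whole worms, with a sonication size range of 200 to 800 bp in the labels. Positions are on ce11, per the labels. Which aligner and peak caller made the lists, and from how many reads, is not given in the sources used here. Depth is therefore unknown for both replicates. The deposited signal has no stated scale and served only to rank and describe peaks. The deposited −log10 IDR values were used for description only. Ranked lists hold 58046 peaks for replicate 1, 63045 for replicate 2 and 115634 for both, and thresholded lists hold 81, 99, 843 (conservative) and 947 (other joint list). A further 16 columns of values per input name no sample and were not used. Every coding or UTR peak is 276 bp wide, with its summit in the middle.

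Summits were placed on the Ensembl release 115 annotation of WBcel235, with 5′ UTR before CDS before 3′ UTR and starts taken from all transcripts of protein-coding genes. The rule leaves 12 coding or UTR summits out for a small RNA gene nearby. Eligible bases are CDS and UTR bases that the same rule would keep, and all of them were counted. A replicate's value is the highest signal among the peaks of its own ranked list that overlap by at least 1 bp. Intervals are exact (Clopper-Pearson, 95%) and cover counting error only. Exon measures use the transcript with the longest CDS.

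The peaks and gene lists were chosen with earlier results of these data known, and no test was run. Named are the 5 highest 5′ UTR, 10 highest 3′ UTR and 20 highest CDS peaks, genes with 3 or more, up to 3 peaks of each list, those at the limit of rank, and the genes round F37B4.10. Some peaks that this rule names are not reported here. The collagen genes beyond the 3 highest, the peaks in the first 500 missing from the conservative list and the sequences of collagen genes were chosen after their values were seen. Symbols alone decided gene lists, so a list need not match its name gene by gene. Placement and overlap were tested on simulated peaks. Software was matplotlib 3.10.9, scipy 1.17.1, pandas 2.3.3 and numpy 2.4.6 under Python 3.11.15.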

Additional observations from a re-analysis of the deposited data

How the results depend on the processing

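Of 88 recomputed values under other choices, 71 stayed close to the reported one (a count within 1.5 times, a share inside its 95% interval, median GC within 0.700 percentage points, the SD between the values from each replicate's own list) and 17 did not. The share of summits in CDS moved under none of them. The share in the collagen list, 3.93%, was 2.86% with genes named col only, an alternative added after seeing the data, and moved under no other. With the 2500 and 10000 peaks of highest signal, the number of coding and UTR peaks was 624 and 2917, the conservative share 26.3% and 5.86%, the share in both replicates' lists 92.9% and 82.8%, and median GC 49.5% and 46.5%. Median GC was 48.5% with either other promoter window, without soft-masked summits and, as an alternative added after seeing the data, without the 25 kb round F37B4.10; it is measured in steps of about 1 point. Ranking on 1 replicate alone gave 1358 to 1480 peaks, a CDS share of 93.2% to 93.6%, median GC of 46.5% to 47.5%, a conservative share of 10.9% to 11.3%, a collagen share of 3.02% to 3.38% and a share in both lists of 72.3% to 74.1%, a lower value. Asking for replicate summits within 100 bp gave 84.3%. Leaving out repeated summit sequences, or using starts of coding transcripts only, both added after seeing the data, moved none of the 6 results. No paired analysis was possible because the study has a single group. The unknown depth, the unstated scale of the signal and the lack of an untagged strain limit every value.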
